A study of Mus musculus with 6 samples.

Results

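The genes described here copy DNA in S phase: the origin licensing factors, the replicative helicase and its activators, the DNA polymerases, the sliding clamp with its loader and the enzymes that complete the strands, the suppliers of deoxynucleotides, and a few regulators of S phase entry and fork control. The list holds 54 genes, chosen by name with earlier results of these data known. Of these, 53 were measured among the 18193 genes that a probe set with a single symbol represents on the array, and Chaf1a was not matched. Where a gene had several probe sets, the one brightest on average over the 6 arrays was used.

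Expression was measured on 6 Affymetrix arrays, each with total RNA of small intestinal stem cells from 1 mouse. The DBZ group comprised 3 Lgr5-EGFP-IRES-creERT2 mice given DBZ, a gamma-secretase inhibitor (GSI) that blocks release of the active part of Notch receptors. The vehicle group comprised 3 mice of the same genotype given DMSO. Cells with high GFP were sorted from both groups 24 hours after treatment, so every animal carried the reporter and Cre cassette at the Lgr5 locus and the gate itself rests on Lgr5 expression. Groups follow the sample titles, because every array carries DMSO in its free-text description. Age, sex and a floxed allele are not given in the labels, and the dose is not used here because its printed unit appears incomplete.

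Replication starts from origins marked by the origin recognition complex, on which Cdc6 and Cdt1 load the ring-shaped MCM helicase before S phase, while geminin (Gmnn) holds Cdt1 inactive afterwards. The kinase of Cdc7 and Dbf4, with Cdc45 and the GINS complex, then turns the loaded ring into a moving helicase. Polymerase alpha and primase begin each strand, polymerases delta and epsilon extend it on the clamp Pcna, and Fen1 and Lig1 join the fragments. Stem cells at the crypt base and the transit-amplifying cells above them cycle rapidly, and many of these genes are known to be transcribed by E2F factors at the start of S phase.

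Replication genes were mostly lower with DBZ. The sorted cells of a mouse were measured together, so fewer cells in S phase, less RNA per cell and a changed mix of sorted cells cannot be told apart. Of the 53 measured genes 11 fell and 1 rose by the test over all genes (limma on log2(intensity + 16), Benjamini-Hochberg adjusted p under 0.05). Among all 18193 genes 1.52% fell and 3.82% rose by that rule, 5.34% in either direction. The 11 were Cdt1, Gmnn, Mcm7, Gins1, Gins2, Pola1, Pole2, Pold1, Lig1, Chaf1b and Dtl, and the 1 that rose was Rfc1. A negative log2 fold change was found for 46 of the 53, against 54.6% of all genes. At an unadjusted p under 0.05, 35 members were lower and 2 higher, against 11.3% and 15.1% of all genes. Every DBZ array lay below every vehicle array for 31 of them, against 15.8% of all genes, and above for 2, against 17.3%. The median log2 fold change of the members was -0.42, against -0.02 over all genes tested. All fold changes and all rises and falls given below are on this log2 scale. The plot of fold changes by role shows where each gene lay.

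**Figure D1:**
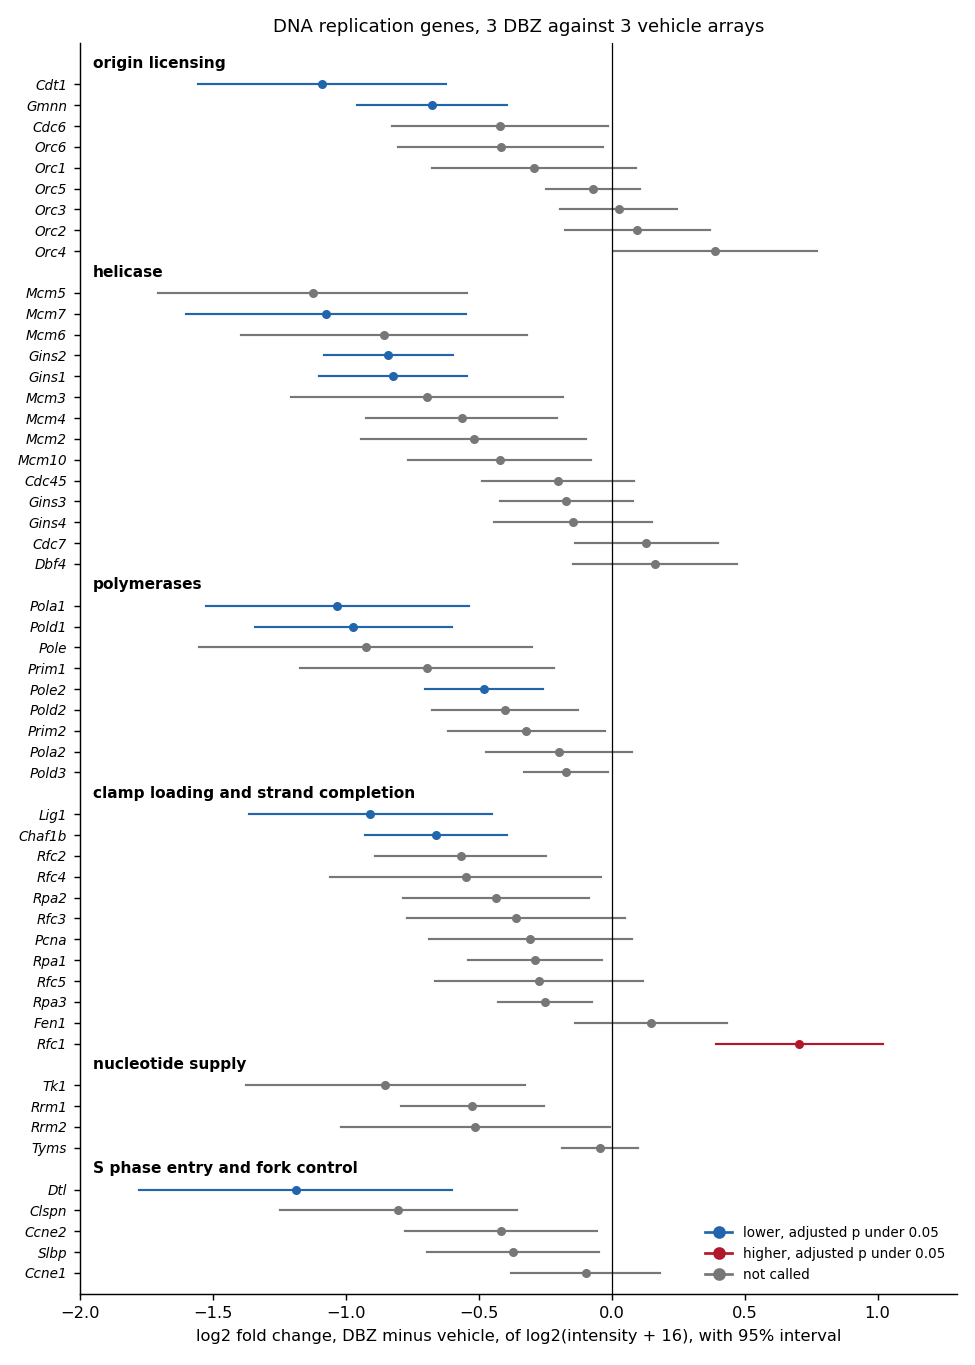
Log2 fold change of each of the 53 measured replication genes, DBZ minus vehicle, on the log2(intensity + 16) scale, with 95% intervals from limma, ordered by value within 6 roles. Blue marks the 11 genes that fell, red the 1 gene that rose and grey those not called. Values run from -1.19 for Dtl to 0.71 for Rfc1.

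The calls depended on which arrays were in the fit. Without vehicle replicate 1, 2 or 3 the test called 0 members in either direction (limma, adjusted over all genes), while 31, 25 and 24 members were lower at an unadjusted p under 0.05. All genes lower at that unadjusted level were then 9.47%, 8.6% and 8.46%. Without DBZ replicate 1, 2 or 3, 10, 5 and 7 of the 12 called genes kept their call. The 5 that kept it without DBZ replicate 2 were Gins1, Gins2, Pold1, Chaf1b and Dtl. Calls were lost over all genes too. Of all genes, 1.52% fell with all 6 arrays, and 4%, 0.247% and 0.401% without DBZ replicate 1, 2 or 3. Without vehicle replicate 1, 2 or 3 the shares were 0.0385%, 0.0165% and 0.022%. The median of the members stayed between -0.55 and -0.31 over these 6 fits, and 46 or 47 members were negative in each.

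**Figure D2:**
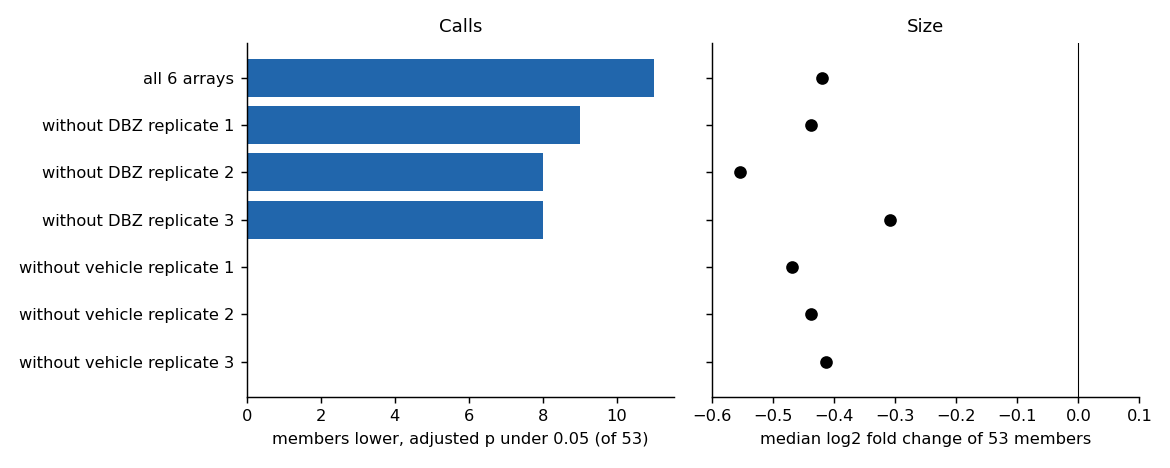
Number of replication genes called lower (left, bars from 0, of 53 measured) and median log2 fold change of the 53 genes (right, points) with all 6 arrays and with each array left out. The count is 11 with all arrays, 8 or 9 without a DBZ array and 0 without a vehicle array, while the median stays between -0.55 and -0.31.

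The promoters of these genes were read for the E2F consensus, here TTT, then a pair of bases that are each C or G, then CGC, on both strands. RefSeq windows on GRCm38.p6 from 250 bases before to 50 after a gene's start were matched by symbol for 45 of the 54 genes. At least 1 match was present in 17 of these 45 (37.8%), against 704 of all 27025 genes with a window (2.6%). Of the genes that fell, 8 had a window and 7 of these held a match. Of the genes not called, 35 had a window and 10 held a match. The stretches below, 5′ to 3′ on the strand of the gene with the match in capitals, are shown because they are the matches of the genes that fell:
Dtl (chr1:191575535-191575562, minus strand): gtgacgtcagTTTGGCGCggagtttggc
Pola1 (chrX:93632276-93632303, minus strand): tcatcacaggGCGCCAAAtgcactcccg
Mcm7 (chr5:138172031-138172058, minus strand): atttcgaaccGCGGGAAAcagggtgtcc
Mcm7 (chr5:138171850-138171877, minus strand): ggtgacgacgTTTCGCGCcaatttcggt
Pole2 (chr12:69228163-69228190, minus strand): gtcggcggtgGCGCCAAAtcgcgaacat
Lig1 (chr7:13278842-13278869, plus strand): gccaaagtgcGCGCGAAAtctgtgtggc
Cdt1 (chr8:122568037-122568064, plus strand): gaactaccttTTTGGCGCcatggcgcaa
Pold1 (chr7:44548766-44548786, minus strand): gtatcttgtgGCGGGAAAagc
For comparison, 1 stretch is shown from each of the helicase genes Mcm5, Mcm6 and Mcm3 and the licensing genes Orc1 and Orc3, which hold a match and were not called:
Mcm5 (chr8:75109346-75109377, plus strand): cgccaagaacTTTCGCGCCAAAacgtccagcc
Mcm6 (chr1:128359794-128359825, minus strand): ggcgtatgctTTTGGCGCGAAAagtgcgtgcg
Mcm3 (chr1:20820276-20820303, minus strand): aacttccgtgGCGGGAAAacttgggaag
Orc1 (chr4:108579417-108579444, plus strand): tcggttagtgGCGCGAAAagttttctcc
Orc3 (chr4:34614966-34614993, minus strand): catgcctcccTTTCCCGCacgccccgcc
The match of Dtl ended at the last base before the start, and that of Pola1 lay 138 to 131 bases before it. The first match of Mcm7 lay 165 to 158 bases before the start. Its second lay at bases 17 to 24 after the start and overlapped a CCAAT box. The capitals of Mcm5 and Mcm6 cover a pair of overlapping matches on opposite strands.

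Other short motifs were searched in the same windows on both strands. The CCAAT box bound by NF-Y was present in 27 of the 45 (60%), against 41.1% of all genes. The core TGGGAA of RBPJ, the DNA-binding partner of Notch, was in 20 (44.4%), against 28.3%. The element TTTGAA, known from promoters of mitotic genes as CHR, was in 7 (15.6%), against 20.2%. Of 23 mitosis genes with a window, the CCAAT box was in 19 (82.6%), TTTGAA in 18, TGGGAA in 5 and the E2F consensus in 1. Of the 8 genes that fell and had a window, the CCAAT box was in 3, TGGGAA in 4 and TTTGAA in 0. A match is a description of these letters and not a binding site. The shares were not tested.

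Among the 9 licensing genes 2 fell, against 1.52% of all genes, and no gene of the origin recognition complex was called. Cdt1, the factor that loads the helicase with Cdc6, had intensities of 646, 701 and 422 in DBZ replicates 1, 2 and 3, against 1374, 1201 and 1168 in vehicle replicates 1, 2 and 3. Each DBZ value was well below the lowest vehicle value, and the log2 fold change was -1.09 ± 0.19 (SE, limma, adjusted p = 0.038). A second bright Cdt1 probe set was at -0.86. Its promoter match is printed above.

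Gmnn, the inhibitor of Cdt1, had 502, 484 and 373 in DBZ arrays, against 734, 735 and 714 in vehicle arrays. The groups were apart and the vehicle values lay close together, with a fold change of -0.68 ± 0.12 (SE, limma, adjusted p = 0.037). Cdc6, the ATPase that joins the origin complex, had 53.0, 80.2 and 45.4 in DBZ arrays, against 87.5, 77.6 and 84.7 in vehicle arrays. Its second DBZ array overlapped the vehicle range, and it was not called (-0.42, limma, adjusted p = 0.18).

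None of the 6 genes of the origin recognition complex, Orc1 to Orc6, was called, and 3 were negative and 3 positive. Their log2 fold changes ran from -0.42 to 0.39, with a median of -0.02. Orc6, the smallest subunit, had 127, 177 and 132 in DBZ arrays, against 164, 223 and 212 in vehicle arrays, which overlapped. Orc4, one of the ATPase-fold subunits, had 279, 282 and 296 in DBZ arrays, against 163, 237 and 253 in vehicle arrays. The Orc4 groups were apart with DBZ higher, but the gene was not called (limma, adjusted p = 0.18), and its next probe set was at -0.02. For Orc3 and Orc5, the 95% intervals of the difference were -0.19 to 0.24 and -0.25 to 0.11. Those of Orc1 and Orc6 were -0.68 to 0.09 and -0.80 to -0.03, and those of Orc2 and Orc4 -0.18 to 0.37 and 0.01 to 0.77.

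The 6 subunits of the MCM ring were below vehicle on every DBZ array, as were 15.8% of all genes, and 1 of them, Mcm7, was called. Mcm7 had 1067, 1249.8 and 675 in DBZ arrays, against 2106, 2031 and 2024 in vehicle arrays. The 3 vehicle values were nearly equal while the DBZ values were spread, and the log2 fold change was -1.08 ± 0.22 (SE, limma, adjusted p = 0.048). The other 3 probe sets of Mcm7 were at -0.85, -0.76 and -1.01, all with the groups apart. Without _x_at and _s_at probe sets, one of which was used here, Mcm7 was not called (limma, adjusted p = 0.058).

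Mcm5, which forms the gate of the ring with Mcm2, had 251, 436 and 223 in DBZ arrays, against 714, 634 and 614 in vehicle arrays. It had the lowest fold change of the ring, at -1.12 ± 0.24 (SE), and missed the threshold (limma, adjusted p = 0.052). Mcm6 had 484, 659 and 361 in DBZ arrays, against 759, 951 and 991 in vehicle arrays, a difference of -0.86 (limma, adjusted p = 0.077). In both genes DBZ replicate 2 was the highest of the DBZ arrays and still below the lowest vehicle array.

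Mcm3 had 218, 294 and 169.5 in DBZ arrays, against 304, 388 and 424 in vehicle arrays, and a fold change of -0.69. Mcm4, with 501, 653 and 438 in DBZ arrays against 727, 788 and 834 in vehicle arrays, was at -0.56. Mcm2, with 329, 485 and 299 in DBZ arrays against 558, 517 and 508 in vehicle arrays, was at -0.52. None of the 3 was called (limma, adjusted p = 0.11, 0.078 and 0.13), and in each the DBZ arrays were more spread on the log2 scale than the vehicle arrays. The fold changes of the ring ran from -1.12 to -0.52, and those of the origin complex from -0.42 to 0.39. The difference between the complexes was not tested.

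**Figure D3:**
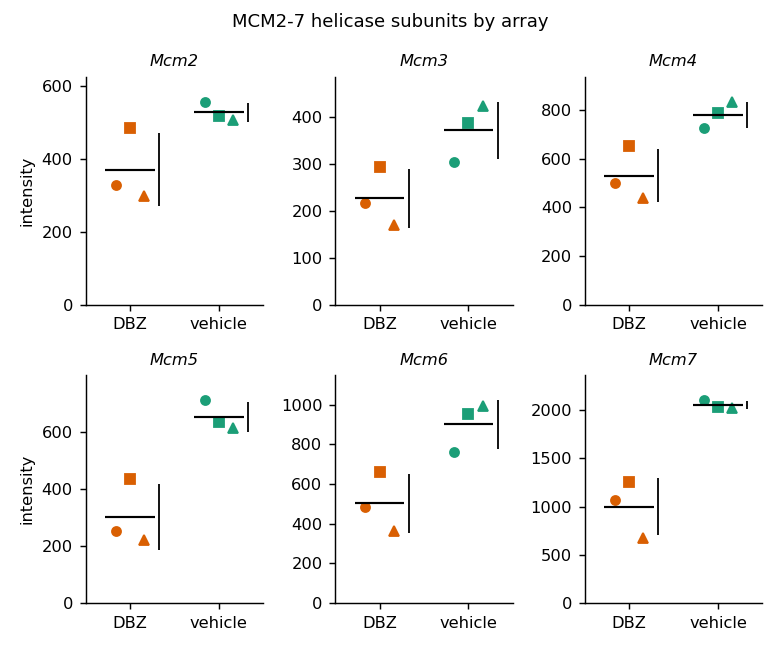
Intensity (linear axes from 0) of the 6 MCM ring subunits in each DBZ array (left, orange) and each vehicle array (right, green). Circle, square and triangle are replicates 1, 2 and 3, the horizontal bar is the group mean and the vertical bar is 1 SD on either side of it. In all 6 genes the DBZ arrays lie below the vehicle arrays, and DBZ replicate 2 is the highest of the DBZ arrays.

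The GINS complex, which bridges Cdc45 and the MCM ring, split into 2 genes that fell and 2 that were not called. Gins2 had 128, 126 and 105 in DBZ arrays, against 232, 204 and 244 in vehicle arrays, and fell by 0.84 with the smallest adjusted p of all members (SE 0.10, limma, adjusted p = 0.022). Gins1 had 105, 124 and 87.5 in DBZ arrays, against 199.8, 201 and 193 in vehicle arrays, and fell by 0.82 (SE 0.11, limma, adjusted p = 0.027). Both genes had the groups well apart. A second bright Gins2 probe set was at -0.59, and it was not called when it replaced the _s_at probe set used (limma, adjusted p = 0.12).

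Gins4 was at -0.15 with a 95% interval of -0.44 to 0.15, and Gins3 at -0.17, near the median intensity of the arrays. The helicase partner Cdc45 was at -0.20 and overlapped, while Mcm10, which helps to start the helicase, was at -0.42 with the groups apart. The activating kinase gave positive values, 0.13 for its catalytic subunit Cdc7 and 0.16 for its regulator Dbf4. None of these 6 genes was called. In all, 3 of 14 helicase genes fell and 0 rose, against 1.52% and 3.82% of all genes.

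All 9 polymerase and primase genes were negative, the groups were apart with DBZ lower for 8, and 3 fell. The shares of all genes were 54.6%, 15.8% and 1.52%. Pola1, the catalytic subunit of polymerase alpha, had 137, 143 and 90.0 in DBZ arrays, against 333, 229 and 241 in vehicle arrays. Vehicle replicate 1 stood above the other vehicle arrays, and the groups did not overlap (-1.03 ± 0.20, SE, limma, adjusted p = 0.047). Pold1, the catalytic subunit of polymerase delta, had 156, 184 and 128 in DBZ arrays, against 375, 295 and 291 in vehicle arrays, and fell by 0.97 (SE 0.15, limma, adjusted p = 0.031). Here too vehicle replicate 1 was the highest array. The other bright Pold1 probe set was at -0.47 with the groups apart, and without _x_at and _s_at probe sets, one of which was used here, Pold1 was not called (limma, adjusted p = 0.079).

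Pole2, the accessory subunit of polymerase epsilon, had 203, 225 and 178 in DBZ arrays, against 276, 292 and 294 in vehicle arrays, and fell by 0.48 (SE 0.09, limma, adjusted p = 0.045). Pole, its catalytic partner, had 68.4, 78.3 and 31.1 in DBZ arrays, against 130.2, 118 and 115 in vehicle arrays. Its fold change was larger, at -0.93, but DBZ replicate 3 lay far below the other DBZ arrays and the gene was not called (limma, adjusted p = 0.088).

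Prim1, the catalytic primase subunit, had 271, 386 and 218 in DBZ arrays, against 426, 486 and 499.5 in vehicle arrays, and was at -0.70 (limma, adjusted p = 0.091). Pold2, which scaffolds polymerase delta, had 473, 596 and 475 in DBZ arrays, against 637, 748 and 661 in vehicle arrays, and was at -0.40 (limma, adjusted p = 0.091). Both had the groups apart and missed the threshold. The accessory subunits Prim2, Pola2 and Pold3 lay between -0.32 and -0.17, and another Pold3 probe set was at 0.03.

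The clamp loader held the 1 member that rose, beside 4 small subunits that were negative and not called. Rfc1, its large subunit, had 593, 793 and 828 in DBZ arrays, against 447, 435 and 443 in vehicle arrays, and rose by 0.71 ± 0.13 on the log2 scale (SE, limma, adjusted p = 0.041). Every DBZ array was above the tightly grouped vehicle arrays. The other 2 probe sets of Rfc1 were at 0.88 and 0.54, both with the groups apart, so that all 3 gave the same direction.

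The small subunits Rfc2 to Rfc5, which complete the loader, ran from -0.57 to -0.27. Rfc2 had 285, 274 and 221 in DBZ arrays, against 342, 448 and 389.9 in vehicle arrays, with the groups apart (limma, adjusted p = 0.063). Rfc4 had 186, 251 and 148 in DBZ arrays, against 231, 300.4 and 338 in vehicle arrays, and overlapped. The 95% intervals were 0.39 to 1.02 for Rfc1 and -0.89 to -0.25 for Rfc2, and the difference between the subunits was not tested. Pcna, the clamp itself, had 2931, 3522 and 2531 in DBZ arrays, against 3088, 3960.2 and 4054 in vehicle arrays, and overlapped. Its difference was -0.31 with a 95% interval of -0.69 to 0.08 (limma, adjusted p = 0.28).

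**Figure D4:**
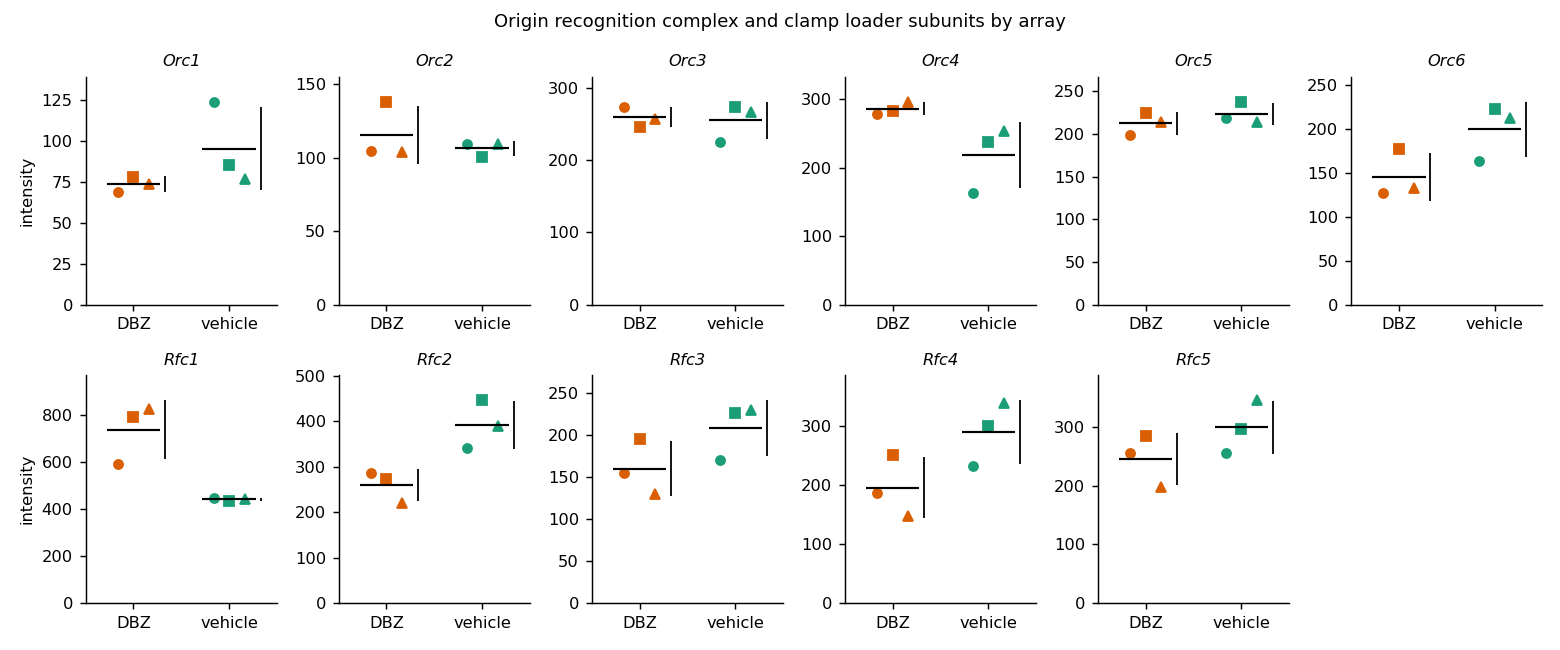
Intensity (linear axes from 0) of the 6 origin recognition complex genes (top) and the 5 clamp loader genes (bottom) in each DBZ array (left, orange) and each vehicle array (right, green). Circle, square and triangle are replicates 1, 2 and 3, the horizontal bar is the mean and the vertical bar 1 SD on either side. Rfc1 is higher in every DBZ array, Rfc2 is lower in every DBZ array, and most of the other panels overlap, except Orc4.

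Strand completion and chromatin assembly included 2 genes that fell. Lig1, the ligase that seals Okazaki fragments, had 379, 412 and 243 in DBZ arrays, against 628, 663 and 646 in vehicle arrays. The vehicle values were close together and the groups apart, at -0.91 ± 0.19 (SE, limma, adjusted p = 0.0499). Chaf1b, a subunit of the factor that places histones behind the fork, had 56.0, 72.6 and 50.9 in DBZ arrays, against 105, 102 and 102 in vehicle arrays, and fell by 0.66 (SE 0.11, limma, adjusted p = 0.034). Fen1, the flap nuclease that acts before Lig1, was at 0.15 with a 95% interval of -0.14 to 0.43 and overlapped. The single-strand binding genes Rpa1, Rpa2 and Rpa3 were at -0.29, -0.44 and -0.25, all with the groups apart and none called.

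None of the 4 nucleotide supply genes was called. Rrm1, the large subunit of ribonucleotide reductase, had 373, 409.9 and 314 in DBZ arrays, against 548, 488 and 557 in vehicle arrays. The groups were apart and the gene narrowly missed the threshold (-0.52 ± 0.11, SE, limma, adjusted p = 0.052). Tk1, the thymidine kinase of S phase, had 211, 243 and 128 in DBZ arrays, against 336, 382 and 339 in vehicle arrays, also with the groups apart (-0.85, limma, adjusted p = 0.074).

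Rrm2, the small reductase subunit, had 319, 457 and 296 in DBZ arrays, against 639.7, 424 and 481 in vehicle arrays. The groups overlapped at -0.51 (limma, adjusted p = 0.19), and its other probe sets were at -0.12 and 0.20, so its direction depended on the probe set. Tyms, thymidylate synthase, was represented by a dim probe set of 13.1, 14.1 and 14.0 in DBZ arrays, against 15.8, 13.3 and 15.0 in vehicle arrays. These values lay well below the median of the arrays and give no measure of its change. A probe set that names both Tyms and its pseudogene Tyms-ps was left out.

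Regulators of S phase entry and fork control had 1 gene that fell among 5, against 1.52% of all genes. Dtl, which brings Cdt1 to its ubiquitin ligase, had 68.3, 97.0 and 40.2 in DBZ arrays, against 179, 169 and 160.2 in vehicle arrays. Its fold change of -1.19 ± 0.24 was the lowest of the 53 genes (SE, limma, adjusted p = 0.049), and its other 5 probe sets were dimmer. Clspn, the adaptor of the fork checkpoint, had 104, 145 and 80.8 in DBZ arrays, against 195, 186 and 215 in vehicle arrays. Its groups were apart at -0.80 without a call (limma, adjusted p = 0.061).

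The E cyclins, which drive entry into S phase, were not called. Ccne2 had 131, 122 and 88.0 in DBZ arrays, against 149.6, 142 and 175 in vehicle arrays, with the groups apart (-0.41, limma, adjusted p = 0.15). Ccne1 had 120.4, 139.6 and 115 in DBZ arrays, against 153, 115 and 138 in vehicle arrays, and overlapped, with a 95% interval of -0.38 to 0.18. Slbp, which binds histone mRNA, had 1101, 982 and 782 in DBZ arrays, against 1154, 1214 and 1323 in vehicle arrays, and was at -0.37 (limma, adjusted p = 0.15).

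Where a gene had several bright probe sets, their signs mostly matched. Members had 36 further probe sets brighter than the array median, of which 31 had the sign of the one used. Among the called genes there were 8, which belonged to Cdt1, Mcm7, Gins2, Pold1 and Rfc1, and all 8 had the same sign with the groups apart, though not always the same size. The other 7 called genes had no second bright probe set. The 5 of opposite sign belonged to Orc2, Orc3, Orc4, Pold3 and Rrm2.

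Across the DBZ arrays the members moved in a common order. DBZ replicate 3 was the lowest DBZ array for 42 of the 53 genes, against 40% of all genes, and DBZ replicate 2 the highest for 42, against 32% of all genes. The spread on the log2 scale was larger among DBZ than among vehicle arrays for 44 members, against 51.7% of all genes. Averaged over the 53 genes, the difference from the vehicle mean was -0.43, -0.23 and -0.66 in DBZ replicates 1, 2 and 3, and -0.02, -0.01 and 0.03 in vehicle replicates 1, 2 and 3. Polymerases were at -0.54, -0.36 and -0.82 in the DBZ arrays and licensing genes at -0.29, -0.12 and -0.40. In each of the 6 roles DBZ replicate 3 was the lowest and DBZ replicate 2 the highest.

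Other genes of the same pathways were read from lists written alongside the members. Of 35 further fork and chromatin replication genes 2 fell and 0 rose, against 1.52% and 3.82% of all genes. Negative values were found for 28, against 54.6% of all genes, with a median of -0.34. Hells, a chromatin remodeller, had 118, 205 and 85.9 in DBZ arrays, against 345, 354 and 345 in vehicle arrays, and fell by 1.33 (SE 0.27, limma, adjusted p = 0.048). Rnaseh2a, which removes RNA from RNA-DNA hybrids, fell by 0.54 (limma, adjusted p = 0.037).

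Of 22 further nucleotide synthesis genes 2 fell and 1 rose, against 1.52% and 3.82% of all genes. Negative values were found for 12, near the 54.6% of all genes, and the median was -0.07, against -0.02 over all genes. Shmt1, which supplies one-carbon units for thymidylate, had 119, 194 and 79.6 in DBZ arrays, against 311, 447 and 426 in vehicle arrays, and fell by 1.54 (limma, adjusted p = 0.046). Dctpp1, which breaks down excess and modified deoxynucleotides, fell by 0.74 (limma, adjusted p = 0.049). Ctps, which makes CTP, had 967, 931 and 590.1 in DBZ arrays, against 367, 387 and 382 in vehicle arrays, and rose by 1.07 (limma, adjusted p = 0.038).

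Of 27 measured genes of G2 and mitosis 0 passed (limma, adjusted over all genes). A negative value was found for 23 of the 27, against 54.6% of all genes, and the median was -0.21. The groups were apart for 4, all with DBZ lower (14.8%, against 15.8% of all genes). At an unadjusted p under 0.05, 4 of the 27 were lower, against 11.3% of all genes. Kif23, a kinesin of cytokinesis, was at -0.58 ± 0.16 and Nuf2, of the kinetochore, at -0.34 ± 0.12 (SE, limma, adjusted p = 0.085 and 0.15). Averaged per array, these genes were at -0.16, 0.05 and -0.49 in DBZ replicates 1, 2 and 3, and 0.14, -0.18 and 0.04 in vehicle replicates 1, 2 and 3. The order of the DBZ arrays was that of the replication genes, and DBZ replicates 1 and 2 lay within the range of the vehicle arrays. The difference between the lists was not tested.

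Lgr5, the gene of the gate, was at 229.9 ± 18.0 in DBZ and 245 ± 35.9 in vehicle arrays (SD, n = 3 each). Ascl2, another of the 6 stem cell markers, fell by 1.03 (limma, adjusted p = 0.025) and the other 5 were not called. Of the 6, 3 were negative and 3 positive, and Slc12a2 was higher in every DBZ array (0.43, limma, adjusted p = 0.066). Epithelial markers had 0 of 11 past the test and summed to 110686 to 118274 in DBZ arrays, against 109501 to 121339 in vehicle arrays. Several other marker lists differed between the groups, some higher and some lower with DBZ. Beside the counts below, 3.82% of all genes rose, and 17.3% were higher in every DBZ array. Of 10 fibroblast and smooth muscle markers 6 rose, with sums of 41725 to 48900.0 in DBZ arrays, against 19394 to 28522 in vehicle arrays. Of 7 goblet markers 2 rose, with sums of 134445 to 165610.0 in DBZ arrays, against 108438 to 116301 in vehicle arrays. Of 8 enteroendocrine markers 1 rose, all 8 were positive and 6 were higher in every DBZ array, with a median of 1.43. Their sums were 3616 to 8701 in DBZ arrays, against 1967 to 2510.3 in vehicle arrays.

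Other lists were lower on average, where 54.6% of all genes were negative. All 7 enterocyte markers were negative and 0 called, with mean differences from the vehicle mean of -0.51, -0.43 and -0.51 in DBZ replicates 1, 2 and 3, and -0.08, 0.22 and -0.14 in vehicle replicates 1, 2 and 3. Of 5 Paneth markers 4 were negative, among them Ang4 at -2.70 and Mptx1 at -2.25, neither called, and Mmp7 rose by 1.37 (limma, adjusted p = 0.034). Paneth means were -1.72, -0.47 and -0.38 in the DBZ arrays, against 0.22, -0.21 and -0.01 in the vehicle arrays. All 6 T lymphocyte markers were negative with 0 called and means of -0.37, -1.03 and -0.28 in the DBZ arrays, against 0.33, -0.54 and 0.20 in the vehicle arrays, which overlapped. The macrophage and endothelial lists were higher. Of 6 macrophage markers 0 were called and 4 were higher in every DBZ array. Of 7 endothelial markers 1 rose and 6 were higher in every DBZ array, against 3.82% and 17.3% of all genes.

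Of 6 neutrophil markers S100a8 and S100a9 rose, where 3.82% of all genes rose. Sums of the 6 were 708 to 5442 in DBZ arrays, against 154 to 219 in vehicle arrays. Of these 6, 3 lay below the array median in each DBZ array, and 4 to 6 in the vehicle arrays. Of 5 adipocyte markers 2 rose, with sums of 5095 to 12125 in DBZ arrays, against 1424 to 3091 in vehicle arrays. Of 6 mesothelial markers 0 were called, with sums of 196 to 672 in DBZ arrays, against 146 to 162 in vehicle arrays. In all 3 lists the sum was lowest in DBZ replicate 2 and highest in DBZ replicate 3 among the DBZ arrays. By the median of the list DBZ replicate 1 was the highest for neutrophil and mesothelial markers. The macrophage and T lymphocyte sums had that same order, at 4526, 3018 and 5542 and at 2449, 1231 and 2883 in DBZ replicates 1, 2 and 3. Not every list did, and the goblet sum was lowest in DBZ replicate 1. The neutrophil sums were carried by S100a8 and S100a9, and Csf3r, Cxcr2, Ngp and Ltf were at 0.37, 0.03, -0.10 and -0.02. As a measure of RNA integrity, actin control probes at the 3′ end over those at the 5′ end gave 1.51 to 1.57 in DBZ arrays and 1.61 to 2.22 in vehicle arrays. The same ratio of the Gapdh control overlapped, at 1.05 to 1.09 in DBZ arrays and 1.07 to 1.42 in vehicle arrays, and vehicle replicate 1 had the highest value of both controls. DBZ replicate 3 correlated with the vehicle arrays at 0.961 to 0.968 across genes, against 0.979 to 0.989 for the other DBZ arrays. The part of these markers and of RNA quality in the values of the replication genes was not tested.

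**Figure D5:**
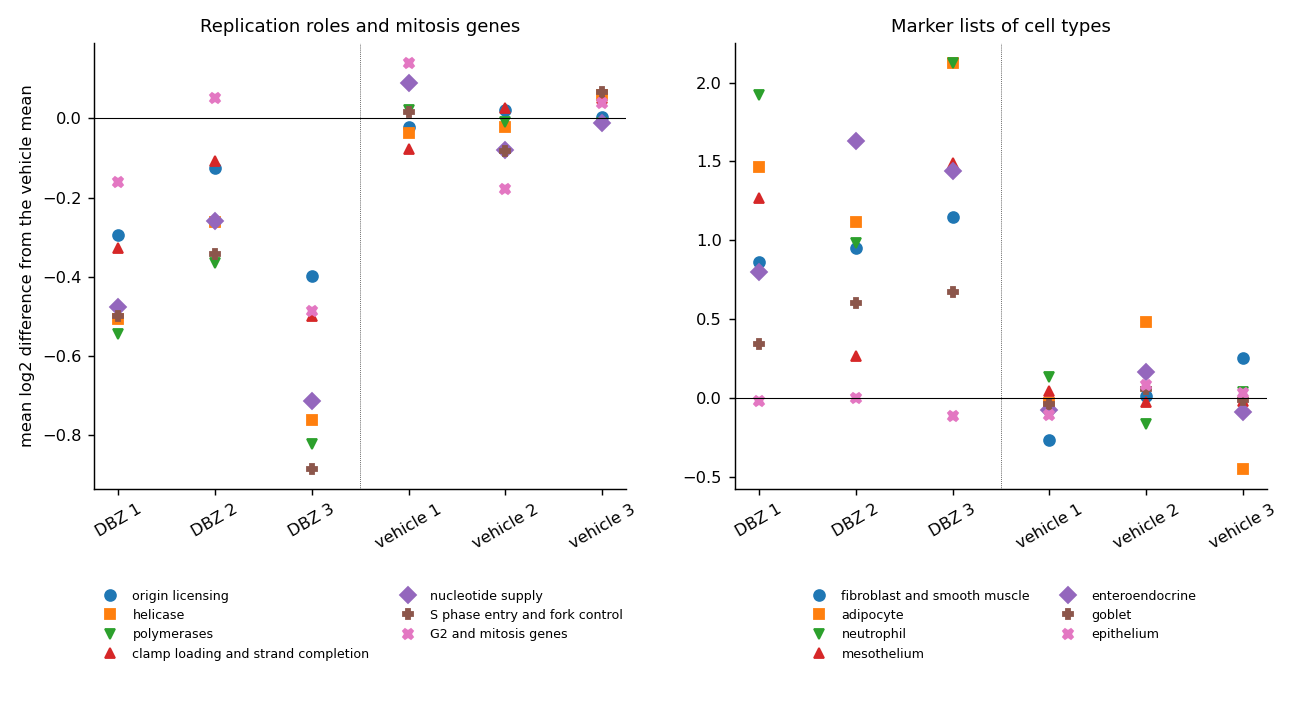
Mean log2 difference from the vehicle mean in each array, DBZ arrays left of vehicle arrays, for the 6 replication roles and the mitosis genes (left panel) and for 7 marker lists of cell types (right panel). All 6 roles are lowest in DBZ replicate 3 and highest among DBZ arrays in DBZ replicate 2. The means of the neutrophil, adipocyte and mesothelium lists are lowest among DBZ arrays in DBZ replicate 2. The height of the neutrophil mean rests on 2 of its 6 genes, while all 6 were lowest among DBZ arrays in DBZ replicate 2.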

How the data were processed

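For each of 6 arrays the authors deposited 1 linear intensity per probe set. Per the labels' protocols, the target was prepared by 3′ in vitro transcription with biotin. How background was corrected and arrays were normalized is not given in the sources used here. Array medians lay between 44.9 and 46.3, so values were not normalized again. Of 45101 probe sets, 34945 outside the array controls had a single symbol in the platform annotation. Keeping the brightest probe set of each symbol gave 18193 genes.

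Values were tested as log2(intensity + 16), a scale that understates the change of dim genes, two-sided, DBZ minus vehicle, by lmFit and eBayes of limma 3.58.1 under R 4.3.3. P-values were adjusted by Benjamini-Hochberg over all genes, at a threshold of 0.05. Intervals are at 95%, and each SE uses the moderated variance. The number of arrays limits the precision, and an exact permutation test of 3 against 3 cannot go below 0.1. The fit was tested on simulated arrays.

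The members and lists were chosen with earlier results of these data known, so lists are described by counts and medians without a test. Named are all called members, up to 3 others of each role by smallest p, 14 listed by name (the MCM ring, Pcna, Cdt1, Gmnn, Cdc6, Rrm1, Rrm2, Ccne1 and Ccne2), and of each context list up to 4 called genes, or 2 by smallest p. Members outside this rule (Orc1 to Orc5 apart from Orc4, Mcm10, Cdc45, Gins3, Gins4, Cdc7, Dbf4, Fen1 and other subunits) were named after their values were seen, to complete their complexes. Promoter sequences are from RefSeq, GRCm38.p6. Other normalizations, pseudocounts, filters, probe set rules, variance models and left-out arrays were tried.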

Additional observations from a re-analysis of the deposited data

How the results depend on the processing

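The median of the members was negative in all 18 alternatives, between -0.55 and -0.31. The number of members that fell, 11 as reported (all genes 1.52%), depended on the settings. It was 4 with a pseudocount of 64 (all genes 0.715%) and 6 with the mean of the probe sets of a gene (all genes 1.25%). With each probe set tested on its own it was 6 (all probe sets 0.747%). It was 7 without _x_at and _s_at probe sets (all genes 1.32%), 7 with robust variance (all genes 1.1%) and 17 with array weights (all genes 5.66%). With 1 array left out it was 0 to 9 (all genes 0.0165% to 4%). The 1 gene that rose, Rfc1, was not called with a pseudocount of 64, and the count of rises was then 0, and it was 0 or 1 with 1 array left out. Over all genes the test called 972 as reported, 440 with a pseudocount of 64, 2690 with array weights and 19 to 2032 with 1 array left out. With the replicate number as a block 7 members fell and 0 rose. The deviations of same-numbered arrays correlated at -0.01, 0.25 and 0.20. Those of DBZ and vehicle arrays with unlike numbers correlated at -0.29 to 0.01. DBZ replicates 2 and 3 correlated best with their own number, and DBZ replicate 1 did not. The labels do not say whether equal numbers share a day or litter, so these values cannot settle whether the arrays are paired. Of the values of named genes under alternatives, 497 kept their direction and side of the threshold, 87 lost the call, 24 gained it and 0 changed sign. The 497 include genes that were called in neither fit, and only the 12 called genes could lose a call. With 1 array left out, each of the 12 kept its call in at most 3 of 6 fits, and Pole2 in 0. The cause of these changes was not tested. Settings with 1 array left out also hold fewer samples. With 3 arrays a group, their number limits every value.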
